A study of Mus musculus with 5 samples.

Results

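miR-22 is a microRNA, a short RNA that binds messenger RNAs and represses them. It is cut from 1 hairpin, and both strands of that hairpin are annotated as mature products. In the mouse they are mmu-miR-22-3p and mmu-miR-22-5p, written miR-22-3p and miR-22-5p from here on. They were chosen by name, as the 2 miR-22 rows among the 1966 rows of a table of mature mouse miRNAs, and they are followed across all 5 libraries of the series. The libraries hold small RNA from extracellular vesicles (EVs), membrane vesicles that cells release, and the series asks how the miRNA content of such EVs compares after and before freeze-drying.

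The freeze-dried group had 3 libraries and the not freeze-dried group 2. Both came from mesenchymal stem cells of C57BL/6-GFP transgenic mice, so every library derives from animals that carry the GFP transgene. For both groups the cells spent 48 h in reduced serum medium, and small EVs were pelleted at 100000 g for 110 min. The freeze-dried EVs were suspended in DPBS with 25 mM trehalose, frozen at -80 °C, dried overnight and left in water for 1 h. The labels name several storage buffers and temperatures without saying which applied to the EVs that were not freeze-dried, and they do not say how many animals or cultures the libraries came from. The p-values therefore measure only the spread between these libraries, which may be technical. Over the whole table, 517 of the 1966 rows had a count in any library. All 13 miRNAs of a list of mesenchymal markers had counts. Their sum was 18.2% to 21.1% of all counts in freeze-dried libraries and 24.9% to 26.5% in not freeze-dried ones. The most abundant of the 13 were miR-21a-5p and miR-143-3p. Of 11 markers of blood, liver and endothelium, 8 had counts, with sums of 0.108% to 0.229% in freeze-dried and 0.157% to 0.174% in not freeze-dried libraries, and miR-144-5p, miR-142a-3p and miR-142a-5p were at 0 throughout.

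In most tissues the 3p strand of miR-22 is the guide, the strand that stays in Argonaute and directs it to messenger RNAs through the seed, bases 2 to 8. The 5p strand is the passenger, which is mostly degraded. miR-22-3p is reported to repress Hdac4 and Sirt1, to promote growth of heart muscle cells and to favour bone over fat formation in mesenchymal stem cells, and it is common in serum and in vesicles.

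The hairpin is a gene of its own, Mir22 (ENSMUSG00000065529.1), on the plus strand of chromosome 11 at 75463716 to 75463810 in GRCm38. In GENCODE M21 it lies wholly inside exon 2 of the non-coding host transcripts of Mir22hg (ENSMUSG00000085148.1). The same exon stretch is also part of Tlcd2-203, a transcript without a coding annotation from the overlapping gene Tlcd2. The mature strands span 75463734 to 75463755 (5p) and 75463772 to 75463793 (3p). The hairpin is shown first with both mature strands in capitals, and then each strand with its seed in capitals, all 5′ to 3′ from RefSeq on GRCm38.p6.

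miR-22 hairpin: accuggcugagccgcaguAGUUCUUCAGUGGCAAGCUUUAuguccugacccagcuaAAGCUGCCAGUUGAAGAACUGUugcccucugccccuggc
miR-22-3p: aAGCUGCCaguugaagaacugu
miR-22-5p: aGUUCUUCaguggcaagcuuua

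Both strands are 22 bases long, begin with A and pair along 19 of those bases with each other in the fold that RNAfold predicts for the hairpin. Among 1679 mature mouse miRNAs in the RefSeq table, 0 others had the seed of miR-22-3p and 0 others had that of miR-22-5p. The longest run of bases that miR-22-3p had in common with any other mature miRNA was 9 bases, and for miR-22-5p it was 10 bases. Neither sequence has an identical copy in that table that could have taken its reads. Copies with mismatches were not searched for. Of the 1966 rows counted here, 1675 matched that table by name, and the others were not compared. miR-6935-3p and miR-7092-3p match miR-22-5p over the shorter stretch of bases 2 to 7, and both had 0 counts in all 5 libraries.

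miR-22-3p was counted in every library. In freeze-dried EVs it had 14902, 18021 and 535 reads in replicates 1, 2 and 3, against 8123 and 709 reads in replicates 1 and 2 of not freeze-dried EVs. These reads were drawn from library totals of 2914305, 2473178 and 192450 counts in the freeze-dried group and of 912080 and 131507 counts in the not freeze-dried group. As a share of all counts, miR-22-3p took 0.511%, 0.729% and 0.278% in the freeze-dried libraries. The exact binomial 95% intervals of these shares were 0.503% to 0.520%, 0.718% to 0.739% and 0.255% to 0.303%. In the not freeze-dried libraries it took 0.891% (interval 0.871% to 0.910%) and 0.539% (interval 0.5003% to 0.5802%). Only the intervals of freeze-dried replicate 1 and not freeze-dried replicate 2 overlap, so counting error, which is all that these intervals cover, is small beside the differences between libraries.

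After scaling by edgeR's TMM factors, which correct library totals for composition, miR-22-3p stood at 5423, 7001 and 3046 CPM (counts per 1000000 counts) in freeze-dried EVs and at 7972 and 5435 CPM in not freeze-dried EVs. The groups overlapped, since freeze-dried replicate 2 lay above not freeze-dried replicate 2. The highest library was not freeze-dried replicate 1 and the lowest was freeze-dried replicate 3, a 2.62-fold range. Freeze-dried EVs averaged 5157 ± 1991 CPM (SD, n = 3) and not freeze-dried EVs 6704 ± 1794 CPM (SD, n = 2).

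**Figure D1:**
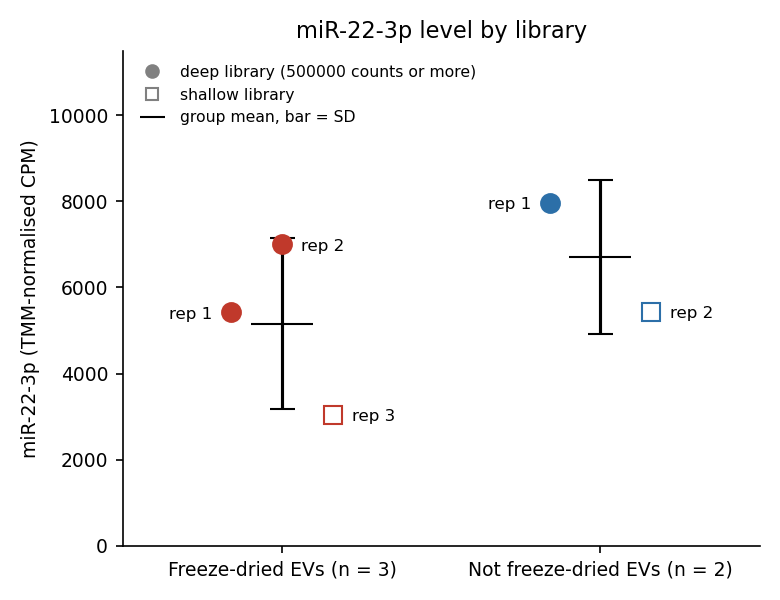
TMM-normalised CPM of miR-22-3p in each library, with freeze-dried EVs on the left and not freeze-dried EVs on the right; filled circles are deep libraries, open squares shallow ones, and bars show the group mean and SD. The freeze-dried points run from 3046 to 7001 CPM and the not freeze-dried points from 5435 to 7972 CPM, so the groups overlap.

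miR-22-3p did not pass the test between the groups. By edgeR's quasi-likelihood test its log2 fold change, freeze-dried over not freeze-dried, was -0.38 (SE 0.38, 95% interval -1.23 to 0.48), and its Benjamini-Hochberg adjusted p over the 327 miRNAs tested was 0.98. As a ratio this is 0.769, with an interval of 0.426 to 1.39. None of the 327 miRNAs was called in either direction (0 called, 0.0%), and 9 of them (2.75%) had an unadjusted edgeR p under 0.05. DESeq2 and limma-voom also called 0, and each had 16 miRNAs at an unadjusted p under 0.05. For the share of counts, freeze-dried EVs averaged 0.506% ± 0.225 (SD, n = 3) and not freeze-dried EVs 0.715% ± 0.249 (SD, n = 2), with an exact two-sided permutation p of 0.40, where 0.2 is the smallest value 3 against 2 libraries can give.

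An interval inside 2-fold in both directions was reached by 28 of the 327 miRNAs (8.56%), and miR-22-3p was not among them. At or above a mean level of 1000 CPM there were 89 tested miRNAs, of which 39 had a fitted log2 fold change below 0. That of miR-22-3p was the 17th lowest, beside a median of 0.05 for the 89. The spread of miR-22-3p was wider than the median of these 89. Its log2 CPM covered a range of 1.39 over the 5 libraries, the 22nd widest of the 89, where the median range was 0.97.

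**Figure D2:**
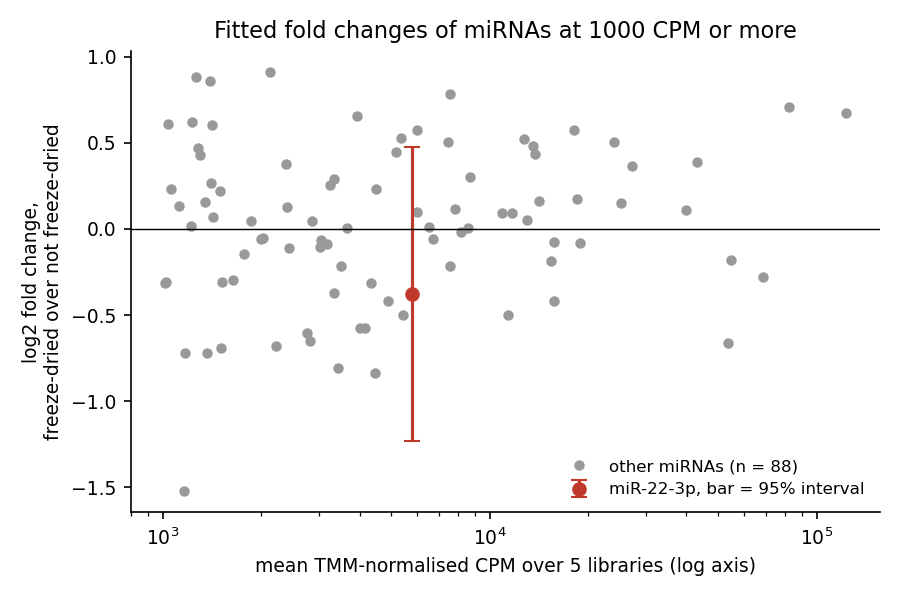
Fitted log2 fold change (freeze-dried over not freeze-dried) against mean TMM-normalised CPM on a log axis, for the 89 miRNAs of at least 1000 CPM; miR-22-3p is the red point, with its 95% interval. It lies at -0.38, inside the cloud of the other 88, and its interval crosses 0.

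Libraries of at least 500000 counts are called deep here and the other 2 shallow. In each group the 1 shallow library had the lowest level of miR-22-3p. Beyond this split the level did not follow depth, since freeze-dried replicate 1, the deepest library, lay below freeze-dried replicate 2. In freeze-dried EVs the shallow replicate 3, at 3046 CPM, was below the deep replicates 1 and 2, and in not freeze-dried EVs the shallow replicate 2, at 5435 CPM, was below the deep replicate 1. Over both groups the deep libraries ran from 5423 to 7972 CPM and the shallow ones from 3046 to 5435 CPM, so the classes overlapped slightly. Among deep libraries the mean was 6212 CPM in freeze-dried EVs (n = 2) against 7972 CPM in the 1 not freeze-dried library, a ratio of 0.779. Among shallow libraries the 1 freeze-dried library had 3046 CPM against 5435 CPM in the 1 not freeze-dried library, a ratio of 0.560. The freeze-dried side was the lower one in both depth classes. With depth class as a term, the edgeR estimate was -0.56 on the log2 scale (SE 0.26, interval -1.16 to 0.03), with an adjusted p of 0.87. The part of depth in the level of miR-22-3p was not tested.

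Over all libraries miR-22-3p ranked 36th by mean CPM among the rows of the table, at 5775 CPM. Its rank by raw counts was 39, 35 and 48 in freeze-dried replicates 1, 2 and 3, and 31 and 39 in not freeze-dried replicates 1 and 2. Directly above it stood miR-484 at 6006 ± 1253 CPM (SD, n = 5) and miR-199a-3p, a miRNA of mesenchymal cells, at 5993 ± 1665 CPM (SD, n = 5). Directly below stood miR-100-5p, of the miR-99/100 family, at 5416 ± 2835 CPM (SD, n = 5) and miR-30c-5p, of the miR-30 family, at 5358 ± 1983 CPM (SD, n = 5). The SD of miR-22-3p itself was 1872 CPM, so none of these neighbours in the order differs from it by more than the spread between libraries. Ligation of adapters can favour some sequences over others, and the counts were not corrected for this. An order of levels between miRNAs of near-equal length is therefore an order of read numbers.

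The miRNAs whose pattern over the 5 libraries was closest to that of miR-22-3p were found by the root mean square difference of log2 CPM, each miRNA centred on its own mean, among the other 88 of at least 1000 CPM. miR-140-3p, a miRNA of cartilage, was closest at 0.18, with 21214, 25119 and 9076 CPM in freeze-dried and 23021 and 16006 CPM in not freeze-dried libraries. miR-676-3p followed at 0.19, with 1266, 1823 and 1053 CPM in freeze-dried and 1977 and 1441 CPM in not freeze-dried libraries. miR-129-5p, best known from neurons, came next at 0.25, with 3132, 3660 and 1862 CPM in freeze-dried and 3467 and 2116 CPM in not freeze-dried libraries. The median difference over the 88 was 0.56. All 3 were lowest in freeze-dried replicate 3, as miR-22-3p was, which follows largely from choosing them for likeness over these same libraries. They had log2 fold changes of -0.08 (SE 0.42), -0.31 (SE 0.41) and 0.05 (SE 0.39), none of them called by edgeR.

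**Figure D3:**
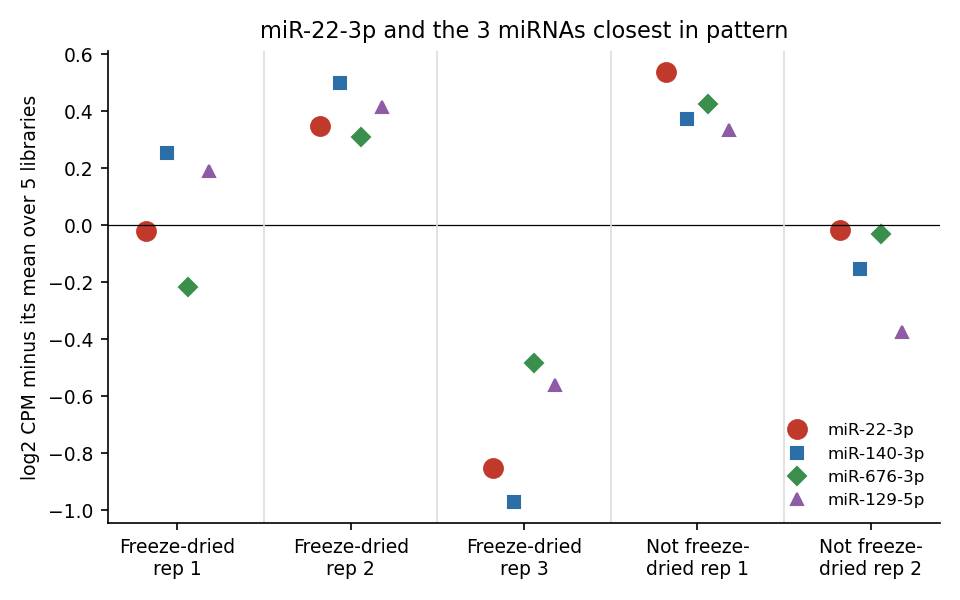
log2 CPM of miR-22-3p and of the 3 miRNAs closest to it in pattern, each minus its own mean over the 5 libraries, for freeze-dried libraries on the left and not freeze-dried ones on the right. All 4 are lowest in freeze-dried replicate 3, where miR-22-3p lies 0.85 below its mean, and all 4 lie above their means in freeze-dried replicate 2 and not freeze-dried replicate 1. The 3 were chosen for likeness over these same libraries.

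The passenger strand was found in 1 library only. miR-22-5p had 301 reads in freeze-dried replicate 1 and 0 reads in freeze-dried replicates 2 and 3, against 0 reads in both not freeze-dried replicates. In freeze-dried replicate 1 this is 110 TMM-normalised CPM, which made it the 169th row of the 361 with a count there. In the other libraries a count of 0 allows up to 3 counts, by counting error alone. That is 1.21 raw CPM in freeze-dried replicate 2 and 15.6 raw CPM in freeze-dried replicate 3. In not freeze-dried replicates 1 and 2 it is 3.29 and 22.8 raw CPM. Such limits take each read as an independent draw and leave out the spread between libraries. The 3 freeze-dried libraries thus did not share the strand, and 2 of them read 0 like the not freeze-dried ones.

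As a share of all miR-22 reads, the 5p strand made up 1.98% in freeze-dried replicate 1 (301 of 15203 reads, exact binomial 95% interval 1.76% to 2.21%), or 1 read for each 49.5 of the 3p strand. In freeze-dried replicate 2, 0 of 18021 reads allow a share of up to 0.0166%, and in freeze-dried replicate 3, 0 of 535 reads allow up to 0.561%. In not freeze-dried replicates 1 and 2, 0 of 8123 and 0 of 709 reads allow up to 0.0369% and 0.423%. All of these limits lie below the interval of freeze-dried replicate 1, but limits and interval alike cover counting error only. At the strand share of that library, freeze-dried replicate 2 would have held 357 reads of the 5p strand and freeze-dried replicate 3 would have held 10.6. Not freeze-dried replicates 1 and 2 would have held 161 and 14.0. These numbers carry the share of 1 library over to the others.

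**Figure D4:**
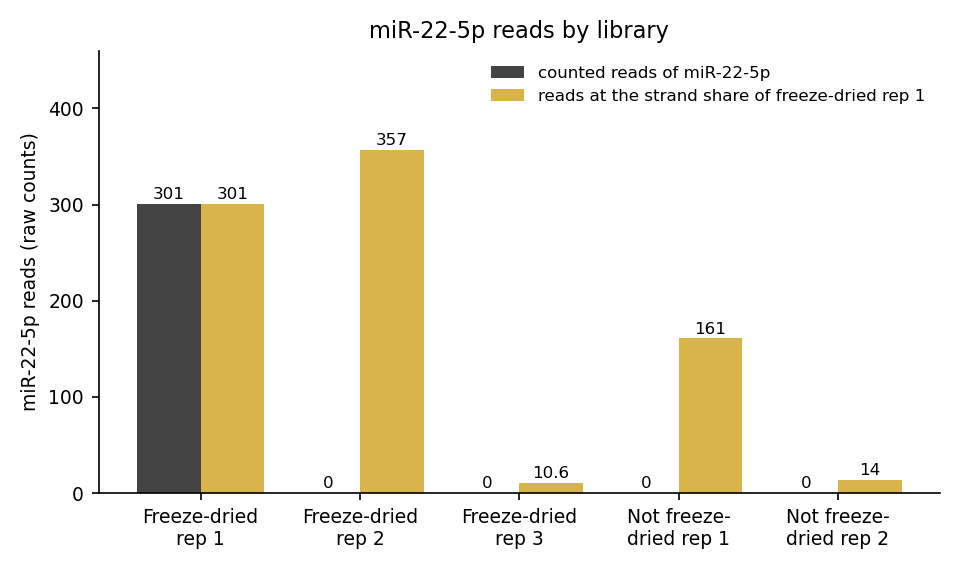
Reads of miR-22-5p in each library (dark bars, raw counts) beside the number that the strand share of freeze-dried replicate 1 would give from that library's own miR-22 reads (yellow bars), freeze-dried libraries on the left. Only freeze-dried replicate 1 has dark bars, at 301 reads, while freeze-dried replicate 2 has 0 reads where that share would give 357.

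Freeze-dried EVs had a mean 5p share of 0.660% ± 1.14 (SD, n = 3), all of it from replicate 1, and not freeze-dried EVs had 0% (n = 2). The exact two-sided permutation p was 1.0, with 0.2 again the smallest possible. Without freeze-dried replicate 1 the share was 0% in both groups. miR-22-5p did not pass the filter on low counts, which asks for a minimum level in at least as many libraries as the smaller group has, so edgeR gave no fold change for it.

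Reads in a single library were common among rows of low abundance. Of the 517 rows with any count, 159 (30.8%) had counts in 1 library only, 41 of them in freeze-dried replicate 1. By raw reads miR-22-5p, at 301, was the 2nd highest of these 159. The highest was miR-152-5p, which had 373 reads in freeze-dried replicate 2 only and was named after its value was seen. Raw reads rise with library depth, so this is not an order of level. Of all 159, 26 reached 100 reads, 15 of them in freeze-dried replicate 1, 10 in freeze-dried replicate 2 and 1 in not freeze-dried replicate 1. In freeze-dried replicate 3 and not freeze-dried replicate 2 the highest such rows had 39 and 18 reads. Library totals differed 22.2-fold, so 100 reads is a higher bar in the smaller libraries. The split is therefore no comparison of the groups.

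The strand share of miR-22 was set beside that of other hairpins, first over the pooled reads of all libraries, where every 5p read of miR-22 comes from freeze-dried replicate 1. Of 103 hairpins with rows for both strands and at least 1000 counts, 50 had a lower share of the less abundant strand than the 0.707% of miR-22 and 52 had a higher one. The median was 0.808%. With each library weighted equally the share of miR-22 was 0.396%, against a median of 0.976% over the 103, with 39 hairpins lower and 63 higher. Without freeze-dried replicate 1 it was 0%. In the order by pooled share, directly below it were miR-27b-5p at 0.653%, counted in 3 libraries, and let-7e-3p at 0.640%, counted in all 5. Directly above were miR-27a-5p at 0.808%, in 2 libraries, and miR-23b-5p at 0.935%, in 3 libraries. Among the 103, the less abundant strand was found in no library for 28 hairpins, in 1 library for 13 (12.6%) and in all 5 for 30. Of the 27 hairpins with at least as many counts as miR-22, itself included, 16 had their less abundant strand in all 5 libraries and 3 in 1 library only. The other 2 of those 3 were miR-30d-3p, with 6 reads, and let-7i-3p, with 3 reads, both named after their values were seen. The cut for these 27 is the miR-22 total of 42591 counts. Just below it, the miR-100 hairpin, at 42120 counts, had 0 reads of miR-100-3p, which was also named after its value was seen.

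By mean CPM over the 5 libraries miR-22-5p ranked 306th at 21.9 CPM, between miR-29a-5p and miR-27a-5p above, at 22.0 and 21.9 CPM, and miR-700-3p and miR-126a-5p below, at 21.6 and 21.6 CPM. The SD of each over the 5 libraries was larger than its mean, so these neighbours do not differ beyond their spread. A search for miRNAs alike in pattern, as made for miR-22-3p, says nothing for miR-22-5p. Its candidates had to pass the low-count filter, which leaves out rows found in 1 library only, such as the 41 found in freeze-dried replicate 1.

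Other miRNAs that share a reported role with miR-22-3p were read from 2 lists. Among all 327 tested miRNAs, 48.9% had a fitted log2 fold change below 0, and the median was 0.02. In the list for bone and fat cell differentiation, 4 of 11 tested members were below 0, with a median of 0.11. miR-143-3p, which promotes fat cell formation, was at -0.66 (SE 0.26) and miR-125b-5p, a repressor of bone formation, at 0.11 (SE 0.28) in log2 fold change. In the list for cardiac muscle growth, 3 of 8 tested members were below 0, with a median of 0.19. On the log2 scale miR-23a-3p, linked to muscle cell size, was at 0.18 (SE 0.31) and miR-21a-5p, a growth-promoting miRNA of mesenchymal cells, at -0.28 (SE 0.33), and miR-208a-3p, miR-208b-3p and miR-195a-5p were at 0 in all libraries. edgeR called 0 members of these lists in either direction. Of the 13 mesenchymal markers 9 were below 0, with a median of -0.22, and of the 7 tested blood, liver and endothelial markers 3 were, with a median of 0.12. The blood list holds miRNAs that, like miR-22-3p, circulate in blood. Its most abundant member, the red cell miRNA miR-486a-5p, had 529, 422 and 979 CPM in freeze-dried and 309 and 690 CPM in not freeze-dried libraries. Next came miR-486b-5p, at 243, 193 and 552 CPM in freeze-dried and 128 and 337 CPM in not freeze-dried libraries. It is so alike to miR-486a-5p in sequence that the split of reads between them is uncertain. miR-486a-5p was highest in freeze-dried replicate 3, where miR-22-3p was lowest. Of the other tested members of the blood list, some were also highest there. The rest were highest in not freeze-dried replicate 1, where miR-22-3p was highest too. A link between this list and miR-22-3p was not tested.

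The nearest of the listed hairpins on chromosome 11 are Mir132 and Mir212, about 290 kb away. miR-132-3p, a miRNA induced by CREB in neurons, had 1669, 404 and 68 reads in freeze-dried libraries and 377 and 38 reads in not freeze-dried ones. miR-212-3p had 68, 216 and 3 reads in freeze-dried libraries and 41 and 2 reads in not freeze-dried ones. Their other strands were each missing from some libraries, though over the pooled reads miR-132-5p made up 5.26% of its hairpin's counts. miR-132-5p had 0 reads in all 3 freeze-dried libraries against 138 and 4 reads in the not freeze-dried ones, and miR-212-5p had 0, 0 and 16 reads in freeze-dried and 25 and 0 reads in not freeze-dried libraries. None of the 4 was called by edgeR, and 1 of the 4 had a fitted log2 fold change below 0.

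The fold change of miR-22-3p kept its sign in all 17 other settings tried, but its size did not hold. It ranged from -0.67 to -0.01 on the log2 scale. It was -0.01 without not freeze-dried replicate 1, the library where miR-22-3p was highest, and -0.07 without freeze-dried replicate 3, where it was lowest. Leaving out replicate 2 of the freeze-dried group gave -0.67, and leaving out replicate 2 of the not freeze-dried group gave -0.66. In none of the 17 was miR-22-3p called, with adjusted p-values of 0.79 to 0.999.

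**Figure D5:**
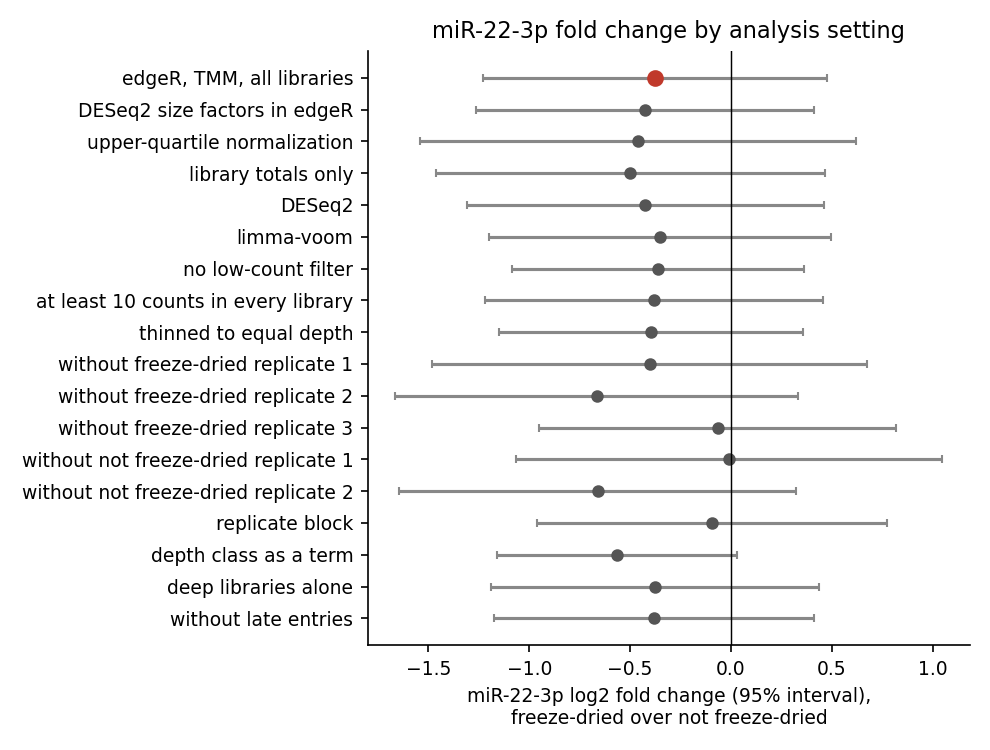
log2 fold change of miR-22-3p (freeze-dried over not freeze-dried) with its 95% interval, in edgeR with all 5 libraries (red, top) and in 17 other settings. All points lie between -0.67 and -0.01, and all intervals cross 0.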

How the data were processed

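Values are raw counts of reads for each mature miRNA, as the authors deposited them, with no normalization. The tools featureCounts 1.5.0-p1, Bowtie 1.1.2, cutadapt 2.3, FastQC and bcl2fastq 2.20 appear in the submitters' processing notes without role or order, as does GRCm38. Not given in the sources used here are the miRNA annotation release and how strand, PCR duplicates and reads with several matches were treated. Libraries were made with a NEXTFLEX kit and size-selected at 126 to 169 bp, per the labels' protocols. Libraries were grouped by title, and columns were matched to samples by the sample names in the descriptions. Total counts ranged from 131507 to 2914305, a 22.2-fold range. Limits from a count of 0 use 3 counts and cover counting error only.

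The whole table was fitted with edgeR 4.0.16 under R 4.3.3, using TMM factors, filterByExpr by group and the robust quasi-likelihood F test (Benjamini-Hochberg over 327 miRNAs, threshold 0.05). The SE is the log2 fold change over the square root of F, and intervals are at 95%. Alternatives used DESeq2 1.42.0 and limma 3.58.1 (voom), other scalings and filters, thinning to 131507 counts, leaving out late entries (miRBase numbers of 1000 or above), each library left out, a replicate block, and depth class. log2 CPM used a prior count of 2. Permutation tests used scipy 1.17.1, folding RNAfold 2.7.2. Of the 1966 rows, 1675 matched a mature RefSeq miRNA (GRCm38.p6) by name. Functions were tested on simulated counts. Named miRNAs are the 2 strands, their neighbours in level and in strand share, the 3 closest to miR-22-3p in pattern, and the 2 most abundant of each list. Outside this rule, the other strands of miR-132 and miR-212, list members at 0 throughout and partial seed matches are named. So are miRNAs said to be named after their values were seen. Members and lists were chosen with earlier results of these data known.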

Additional observations from a re-analysis of the deposited data

How the results depend on the processing

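The count of 0 miRNAs called by edgeR became 4 with the replicate block and 1 in the deep libraries alone, and stayed 0 in the other 15 settings. miR-22-3p was not among those called. Its log2 fold change of -0.38 was -0.10 with the replicate block, whose numbers make only 2 pairs (deviations correlated at 0.17 and -0.12) and are not said to pair samples. Without 1 library in turn it ranged from -0.67 to -0.01. Library totals without TMM factors moved the median of all miRNAs by -0.11. The difference in the miR-22-3p share of counts, -0.209 percentage points, ranged from -0.385 to -0.0331 without 1 library. The difference in the 5p share of miR-22 reads, 0.660 points, ranged from 0 (without freeze-dried replicate 1) to 0.990. Without a low-count filter edgeR fitted miR-22-5p at a log2 fold change of 8.61 with an interval of -3.74 to 20.96 (adjusted p = 0.79). That value depends on the prior count and is no bound. With 1 not freeze-dried library left, its spread is taken to equal that of the other group, and the shares then have no test. The 5 libraries limit what can be called. In the 2 shallow ones a count of 0 still allows a 5p strand of up to 0.423% to 0.561% of miR-22 reads, by counting error alone.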
